A study of Caenorhabditis elegans with 8 samples.

Results

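Day 12 adults of the nematode Caenorhabditis elegans were compared with day 1 adults, using the 2 day 12 arrays and the 3 day 1 arrays among the 8 arrays of a study of ageing. Each array was an Affymetrix C. elegans Gene 1.1 ST array carrying total RNA of a whole synchronized population of the wild-type laboratory strain N2 Bristol, kept at 20 °C on growth plates with the OP50 strain of E. coli as food and aged with no intervention. The groups were day 12 of adulthood (2 arrays) and day 1 of adulthood (3 arrays), and 3 arrays of day 6 adults entered the fit only as a further group. Every probe with a gene symbol was tested, and 26128 genes were each followed through their brightest probe. The replicates are called biological in the labels, which do not say whether they came from separate cultures, so p-values measure the spread between these arrays. The labels also do not say how adults were kept apart from their eggs and larvae, and they name no batch or date, so day and any batch cannot be told apart.

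A day 1 adult hermaphrodite has just completed its last moult, lays fertilised eggs and loads yolk made in the intestine into its oocytes. The adult soma no longer divides, the cuticle is no longer shed, and self-fertile egg laying ends once the animal's own sperm are used up. Over the following days body wall muscle, intestine and gonad are known to deteriorate, and defence and stress genes are known to change their activity.

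Levels below are log2 signal, and a difference is the day 12 mean minus the day 1 mean on that scale, given ± its SE with the Benjamini-Hochberg adjusted p of limma's moderated test. A gene rose or fell where that adjusted p was under 0.05. Levels under 3 were taken to lie at the floor of detection. Differences marked as from or to the floor are therefore lower bounds and are not ranked. Levels of different genes come from different probes and are not compared. In whole animals, fewer cells of a type and less RNA per cell cannot be told apart.

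Of the 26128 genes, 2469 rose and 1195 fell at day 12, so that 14.0% were called, 9.45% higher and 4.57% lower. Among the 9628 genes with a mean over all arrays of at least 3, 29.0% were called, 18.5% higher and 10.6% lower. Changes of at least 4-fold were found in 424 genes that rose and in 279 that fell. Quantile normalization gave 1976 rises and 1524 falls, cyclic loess gave 2115 rises and 1516 falls, so the excess of rises shrank with those scalings. The median difference over the genes with a mean of at least 3 was 0.11 as deposited, -0.0016 after quantile normalization and 0.0087 after cyclic loess, and small differences are read relative to that shift. Without day 12 replicate 2 the calls numbered 2369. Of the called genes, 1210 that rose and 602 that fell kept their call and direction under every alternative in which they were tested, and the genes named below are among these unless a lost call is given. In 38.4% of all genes the day 12 arrays lay wholly above or below those of day 1. All 3664 called genes were among these. For a called gene named below, arrays that do not overlap therefore add nothing to its call. The median SD above the floor was 0.17 between day 12 arrays and 0.21 between day 1 arrays. The adult cuticle collagen gene col-19, a marker of the adult stage, stood at 4.1 and 2.83 in the day 12 arrays, against 9.64, 9.18 and 8.86 in the day 1 arrays. This marker bears out the label of adult at day 1. Its low level at day 12 cannot check the label there, since 35 of 151 col genes fell between these days. Counts of 1 or 2 called members of a list changed in many lists when 1 array was left out, and nothing is read from them.

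**Figure D1:**
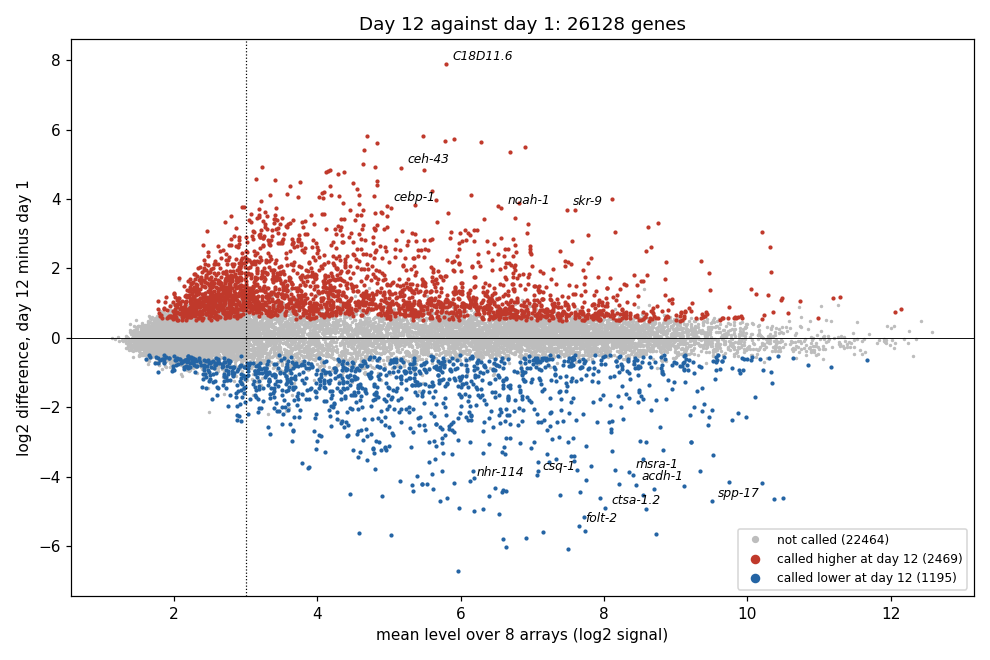
Each point is a gene, with its mean level over 8 arrays (log2 signal) across and its log2 difference, day 12 minus day 1, upwards; red points were called higher at day 12, blue points lower and grey points were not called. The dotted line marks the level of 3, and the 2469 rises and 1195 falls extend from the dim to the bright end of the arrays.

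Genes measured on both days that rose most at day 12 encoded defence proteins, a protease inhibitor, a homeobox factor and several proteins of unknown function. The gene ceh-43, a Distal-less type homeobox factor, was at 8.2 and 8.67 in day 12 adults, against 3.55, 3.59 and 3.44 in day 1 adults, a difference of 4.91 ± 0.25 (adjusted p = 2.82e-06). The day 6 mean of ceh-43 was 4.63, and the arrays of day 12 and day 1 lay far apart. The gene spi-2, a predicted serine protease inhibitor, measured 8.12 and 8.57 at day 12, against 3.0, 3.37 and 4.11 at day 1, a difference of 4.85 ± 0.29 (adjusted p = 5.69e-06). The chitinase gene cht-1 stood at 7.45 and 7.82 in the day 12 arrays, against 3.9, 2.89 and 2.91 in the day 1 arrays, a difference of 4.4 ± 0.32 (adjusted p = 1.31e-05). As in every gene that rose, no day 1 array of these genes reached a day 12 array. The Delta/Serrate/LAG-2 family gene dsl-3 was at 6.82 and 7.54 in day 12 adults, against 3.43, 3.24 and 2.56 in day 1 adults, a difference of 4.1 ± 0.3. Further rises were those of W04A8.4 (4.93 ± 0.17), Y82E9BR.17 (4.3 ± 0.36), R03H10.2 (4.11 ± 0.2) and T24C4.2 (4.11 ± 0.17), for which no role is given here. The gene ces-2, a bZIP factor known from programmed cell death of neurons in embryos, measured 7.48 and 8.09 at day 12, against 2.6, 3.67 and 2.7 at day 1, a difference of 4.79 ± 0.45 from the floor (adjusted p = 5.32e-05). The astacin protease gene hch-1, which codes for the hatching enzyme, stood at 7.74 and 7.94 in the day 12 arrays, against 2.74, 2.61 and 3.16 in the day 1 arrays, a difference of 5.01 ± 0.33 from the floor (adjusted p = 8.18e-06). Other genes that rose from the floor were F16B4.7, R03H10.6 and the 5S ribosomal RNA gene rrn-4.15, of which many near-identical copies exist, which a probe may not separate.

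The genes that fell most included collagens, a folate transporter, digestive proteases and a saposin-like protein. The folate transporter family gene folt-2 was at 5.29 and 3.15 in day 12 adults, against 10.05, 9.69 and 9.23 in day 1 adults, a difference of -5.43 ± 0.56 (adjusted p = 9.61e-05). The gene spp-17, a saposin-like protein of a family with antimicrobial members, measured 6.78 and 5.54 at day 12, against 10.88, 11.26 and 10.5 at day 1, a difference of -4.72 ± 0.38 (adjusted p = 2.24e-05). Both genes were bright in every day 1 array and far below that in both day 12 arrays. K12H4.7 stood at 5.94 and 4.55 in the day 12 arrays, against 10.3, 10.21 and 10.01 in the day 1 arrays, and Y16B4A.2 was at 3.78 and 2.42 in day 12 adults, against 8.18, 8.18 and 8.16 in day 1 adults; neither is given a role here. The gene epic-2 fell by 5.6 ± 0.75, though its day 12 arrays at 4.69 and 3.05 were wide apart. Falls to the floor were those of T13F3.6 (-5.01 ± 0.54 to the floor), F46F2.3 (-4.7 ± 0.28 to the floor) and T05E12.6 (-4.35 ± 0.32 to the floor).

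Genes of the epidermal apical matrix moved in opposite directions by class where they were called: precuticle genes and cuticlins rose, while most of the called col collagens fell. The precuticle is a transient layer of lipocalins, leucine-rich repeat proteins and zona pellucida domain proteins that coats epithelia of embryos and moulting larvae before each new cuticle is laid down. Of the 16 precuticle genes measured, 11 rose and the other 5 were not called, with a median difference of 2.21, against -0.013 over all genes and 0.11 over genes above the floor. The leucine-rich repeat gene sym-1 measured 8.52 and 8.36 at day 12, against 4.64, 3.7 and 5.08 at day 1, a difference of 3.96 ± 0.34 (adjusted p = 3.28e-05). The lipocalin gene lpr-3 stood at 6.98 and 7.18 in the day 12 arrays, against 3.07, 2.98 and 3.56 in the day 1 arrays, a difference of 3.88 ± 0.22 (adjusted p = 5.33e-06). In both genes the day 12 arrays lay close together and above every day 1 array. The zona pellucida domain gene noah-1 was at 9.1 and 9.13 in day 12 adults, against 5.63, 5.28 and 5.23 in day 1 adults, and its relative noah-2 measured 8.2 and 8.3 at day 12, against 4.79, 4.46 and 4.72 at day 1. Their differences were 3.73 ± 0.23 and 3.6 ± 0.16, and their day 6 means of 6.05 and 5.37 lay nearer to day 1. The fibrillin-like gene fbn-1 differed by 3.38 ± 0.19 from the floor, and the leucine-rich repeat gene let-4 by 2.74 ± 0.2 from the floor. The leucine-rich repeat gene egg-6 was not called (-0.22 ± 0.17, adjusted p = 0.501), nor was the peroxidase gene mlt-7 (-0.44 ± 0.25).

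Cuticlins are zona pellucida domain proteins of the cuticle. Of 35 cuticlin and cuticlin-like genes 13 rose and the other 22 were not called, but only 5 of the 35 had a mean above the floor, and 4 were called higher when dim probes were left out. The gene cutl-16 stood at 6.84 and 7.21 in the day 12 arrays, against 2.57, 3.14 and 3.22 in the day 1 arrays, a difference of 4.05 ± 0.22 from the floor. The gene cutl-20 differed by 3.57 ± 0.23 and cutl-2 by 2.71 ± 0.17 from the floor. Among 19 collagens named for body shape (dumpy, squat, roller, blister and long) 6 rose. Of these dpy-17 was at 6.96 and 6.85 in day 12 adults, against 4.25, 4.78 and 3.81 in day 1 adults, a difference of 2.62 ± 0.29 (adjusted p = 0.000173), and dpy-14 differed by 3.43 ± 0.23 from the floor. Without day 12 replicate 2 the list had 3 calls, and 3 with dim probes left out. Among the 151 col genes, in contrast, 6 rose and 35 fell, with a median of -0.12 over all 151, of which 40 had a mean above the floor. The gene col-143 measured 8.23 and 6.66 at day 12, against 12.06, 12.32 and 11.88 at day 1, a difference of -4.64 ± 0.45 (adjusted p = 6.77e-05). The gene col-124 stood at 3.57 and 3.25 in the day 12 arrays, against 8.86, 8.7 and 7.5 in the day 1 arrays, a difference of -4.94 ± 0.68. The day 1 arrays of col-124 were wider apart than its day 12 arrays, and the days did not overlap. The number of col genes called lower was 23 without day 12 replicate 1 and 22 without day 12 replicate 2. The gene col-121 was among the 6 that rose (1.47 ± 0.29 from the floor).

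Hedgehog-related genes code for secreted proteins, many of them made in the epidermis, and moved both ways. Of 59 measured, 5 rose and 6 fell, shares of 8.47% and 10.2% beside the 9.45% and 4.57% of all genes; wrt-10 was at 6.7 and 7.12 in day 12 adults, against 3.07, 3.23 and 3.38 in day 1 adults, while grd-3 measured 3.33 and 3.14 at day 12, against 7.96, 8.25 and 7.34 at day 1. Their differences were 3.68 ± 0.18 and -4.62 ± 0.49. Without day 1 replicate 1 or without day 12 replicate 2 there were 3 rises instead of 5. The patched-related gene ptr-4, known to act in moulting, differed by 2.1 ± 0.21 from the floor, among 4 rises and no fall in 27 patched-related genes, and the rises numbered 2 when day 12 replicate 1 was left out. In the basement membrane, the sheet under epithelia and muscle, 1 gene rose and 7 fell of 18. The perlecan gene unc-52 stood at 4.94 and 4.23 in the day 12 arrays, against 7.44, 6.95 and 6.97 in the day 1 arrays, a difference of -2.53 ± 0.37 (adjusted p = 0.00106). The SPARC gene ost-1 differed by -1.56 ± 0.22, and the dystroglycan gene dgn-1 rose by 2.24 ± 0.21. The number of falls in this list was 4 when day 1 replicate 1 was left out, 3 when day 12 replicate 1 was and 2 when day 12 replicate 2 was, while unc-52 and ost-1 kept their calls.

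Transthyretin-like genes, a nematode family of small secreted proteins, were mostly higher where they changed. Of 58 measured, 23 rose and 4 fell, with a median difference of 0.15, and the median over members of replicate 1 minus replicate 2 at day 12 was -0.38. The gene ttr-51 was at 10.15 and 10.72 in day 12 adults, against 7.05, 7.57 and 7.13 in day 1 adults, a difference of 3.18 ± 0.22 (adjusted p = 1.10e-05). The gene ttr-45 measured 11.66 and 12.03 at day 12, against 8.46, 9.13 and 8.81 at day 1, a difference of 3.04 ± 0.22 (adjusted p = 1.12e-05). Both were well above the floor on day 1 and higher still in each day 12 array. The genes ttr-32, ttr-34 and ttr-33 differed by 2.79 ± 0.23, 2.5 ± 0.25 and 2.29 ± 0.27. The gene ttr-16 fell by 1.19 ± 0.19. The falls numbered 1 when day 12 replicate 1 was left out, 2 when day 1 replicate 2 or day 1 replicate 3 was left out, and 7 with quantile normalization or cyclic loess.

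Transcription factor families were mostly higher where they changed, many of them from low levels. Of 98 homeobox genes 24 rose and 1 fell, and of 19 T-box genes 7 rose. Of 60 bZIP, GATA and bHLH genes 18 rose and 3 fell, and of 280 nuclear hormone receptor genes 41 rose and 3 fell. The shares of rises were 24.5%, 36.8%, 30% and 14.6% in that order, beside 9.45% of all genes and 18.5% of genes above the floor. The share of nuclear hormone receptor genes lay between these backgrounds. The homeobox gene ceh-32 stood at 6.22 and 6.63 in the day 12 arrays, against 3.45, 3.76 and 3.32 in the day 1 arrays, a difference of 2.91 ± 0.18 (adjusted p = 7.23e-06). The LIM homeobox gene lim-7 was at 6.85 and 6.32 in day 12 adults, against 4.18, 4.12 and 4.01 in day 1 adults, a difference of 2.48 ± 0.18. The Pbx family gene ceh-20 differed by 1.92 ± 0.17, the Pax6 gene vab-3 by 3.31 ± 0.18 from the floor and the POU gene unc-86 by 2.16 ± 0.27 from the floor. The nuclear receptor gene nhr-25, which acts in epidermis and moulting, measured 6.67 and 6.56 at day 12, against 3.81, 3.56 and 2.9 at day 1, a difference of 3.19 ± 0.24 (adjusted p = 1.34e-05). The nuclear receptor gene sex-1, known as an X chromosome signal in sex determination of embryos, stood at 7.33 and 7.27 in the day 12 arrays, against 4.96, 5.26 and 4.56 in the day 1 arrays, a difference of 2.37 ± 0.21. In contrast nhr-114 was at 4.17 and 3.74 in day 12 adults, against 7.93, 8.11 and 8.19 in day 1 adults, a difference of -4.13 ± 0.32 (adjusted p = 1.81e-05). Both day 12 arrays of nhr-114 lay far below every day 1 array. Among bZIP genes atf-2 measured 6.46 and 6.44 at day 12, against 3.12, 3.54 and 3.25 at day 1, zip-8 differed by 2.8 ± 0.28 from the floor and zip-7 by 3.57 ± 0.18 from the floor. The bZIP gene zip-3, known to restrain the mitochondrial unfolded protein response, stood at 4.33 and 3.96 in the day 12 arrays, against 6.23, 7.05 and 7.14 in the day 1 arrays, a difference of -2.66 ± 0.26. With dim probes left out 26 nuclear hormone receptor genes were called higher. The falls of nuclear hormone receptor genes, and those of bZIP, GATA and bHLH genes, numbered 5 in each list when day 1 replicate 1 was left out and with quantile normalization or cyclic loess.

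**Figure D2:**
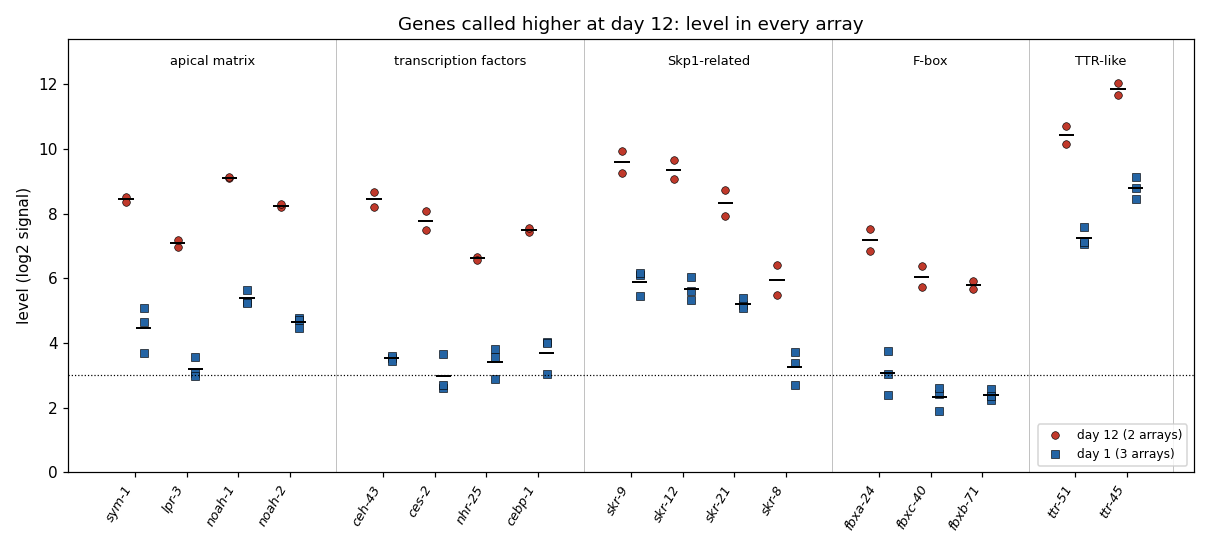
Level (log2 signal) in each array for genes called higher at day 12, with day 12 arrays as red circles, day 1 arrays as blue squares, bars at the means and a dotted line at the level of 3. In every gene shown each day 12 array lies above each day 1 array, as in every gene called higher. The 4 transcription factor genes start near the dotted line.

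Markers of embryos and moulting larvae were measured in the same arrays, since several of the genes above are known from those stages. Of 50 genes switched on in early embryos 13 rose and the other 37 were not called, with a median difference of 0.17, and 19 of the 50 were above the floor. Among them tbx-11 was at 5.99 and 6.2 in day 12 adults, against 4.08, 3.45 and 3.58 in day 1 adults, tbx-38 differed by 2.53 ± 0.29 and the zinc finger gene ztf-11 by 2.55 ± 0.16, while the caudal homologue pal-1 was not called (-0.031 ± 0.16). The summed signal of the early embryo list, on the log2 scale, was 11.07 and 11.02 at day 12, and 10.49, 10.52 and 10.54 at day 1. This list shares genes with the transcription factor families above, nhr-25 and T-box genes among them. Its rises and its sum are therefore not separate from theirs. For 21 moulting and larval markers, of which 11 rose and 7 were also in the precuticle list, the summed signal was 11.12 and 10.99 at day 12, and 9.6, 9.46 and 9.49 at day 1. The moulting regulator gene nhr-23 of this list was not called (-0.15 ± 0.19). All 11 markers of male-specific neurons and development had a mean over the 8 arrays under 3. Of these mab-3 alone was called higher (0.97 ± 0.18 from the floor, adjusted p = 0.00487), a call that was lost under 1 alternative, with an adjusted p of 0.0574 without day 12 replicate 2. Their summed signals were 5.65 and 5.7 at day 12, and 5.36, 5.47 and 5.45 at day 1. The part of embryos, larvae or males in the rises of precuticle, transcription factor and histone genes was not tested.

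Histone genes were higher where they were called. Of 25 his genes measured, 10 rose and 24 had a positive difference, with a median of 0.59, and of 9 linker histone genes, his-24 included in both lists, 5 rose with a median of 1.21. The linker histone gene hil-3 measured 6.85 and 7.34 at day 12, against 3.22, 3.89 and 3.53 at day 1, a difference of 3.55 ± 0.22 (adjusted p = 6.38e-06). The linker histone gene his-24 stood at 5.99 and 6.83 in the day 12 arrays, against 3.33, 3.41 and 2.63 in the day 1 arrays, a difference of 3.28 ± 0.28 (adjusted p = 3.03e-05). In both genes the day 1 arrays were low and did not reach the day 12 arrays. The core histone gene his-39 differed by 1.8 ± 0.17, his-31 by 1.64 ± 0.2 and his-8 by 1.37 ± 0.18, although near-identical histone copies may not be separated by their probes. Of 43 genes of DNA replication and cell division, all above the floor, 3 rose, with a median difference of 0.19. No rise was called when day 12 replicate 1 was left out, and 1 was when day 12 replicate 2 or day 1 replicate 1 was left out. Neither cdk-1 (0.31 ± 0.16) nor the ribonucleotide reductase gene rnr-2 (0.28 ± 0.15) was called.

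Few germline genes were called. Of 39 germ granule and meiosis genes 1 rose and 2 fell, and of 27 eggshell and egg activation genes 2 rose and 1 fell, shares below the 29.0% called among genes above the floor. The eggshell genes cpg-1 and cpg-2 had differences of -0.024 ± 0.15 and -0.049 ± 0.14, and the germline RNA-binding gene gld-1 of -0.23 ± 0.15. The synaptonemal complex gene syp-1 was at 5.97 and 5.99 in day 12 adults, against 5.22, 4.87 and 5.07 in day 1 adults, a difference of 0.92 ± 0.16 (adjusted p = 0.00294), and the Argonaute gene csr-1 fell by 0.83 ± 0.14. The yolk receptor gene rme-2 was called lower (-0.64 ± 0.14, adjusted p = 0.0125), a call that was lost under 1 alternative, with an adjusted p of 0.0988 without day 12 replicate 2. None of the 26 major sperm protein genes was called by limma, 4 of them at an unadjusted p under 0.05, and their copies are nearly identical. When day 1 replicate 3 was left out 3 were called higher. The summed signal of the germ granule and meiosis list was 13.61 and 13.37 at day 12, and 13.69, 13.62 and 13.74 at day 1, lower in each day 12 array by a small margin.

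Genes of the contractile apparatus fell. In the sarcomere list 20 of 32 members fell and the other 12 were not called, with a median difference of -1.77. The troponin I gene unc-27 measured 7.62 and 7.3 at day 12, against 10.96, 10.56 and 10.99 at day 1, and the essential light chain gene mlc-5 was not called (0.27 ± 0.18). Among 14 genes of muscle calcium handling and energy 1 rose, 1 fell and 12 were not called, with a median of -0.063. The fall was that of csq-1, which encodes calsequestrin, the calcium store of the sarcoplasmic reticulum. This gene stood at 5.08 and 4.17 in the day 12 arrays, against 8.82, 8.42 and 8.49 in the day 1 arrays, a difference of -3.95 ± 0.31 (adjusted p = 1.77e-05). The calcium pump gene sca-1 of the same membrane was not called (-0.17 ± 0.16, adjusted p = 0.593). Of 25 genes of dense bodies and M-lines, which anchor filaments to the membrane, 3 rose and 7 fell. No rise was called when day 12 replicate 1 was left out or with cyclic loess, and 1 was when day 12 replicate 2 or day 1 replicate 2 was left out. The kettin gene ketn-1 was at 5.58 and 4.92 in day 12 adults, against 7.37, 7.13 and 6.75 in day 1 adults, a difference of -1.83 ± 0.28. The zyxin gene zyx-1 fell by 1.36 ± 0.22, the gene alp-1 by 1.45 ± 0.16 and dim-1 by 1.39 ± 0.19, while the integrin gene pat-3 was not called (0.53 ± 0.19).

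Genes of intestinal digestion and of the intestinal surface fell as well. Cathepsin A type carboxypeptidases (ctsa) and cathepsin B, L and Z type proteases break down protein in lysosomes and gut lumen, and 11 of 18 measured fell while 1 rose, with a median of -1.09. The gene ctsa-1.2 measured 5.32 and 3.72 at day 12, against 9.58, 9.39 and 9.32 at day 1, a difference of -4.91 ± 0.36 (adjusted p = 1.31e-05). The gene ctsa-2 stood at 5.73 and 4.71 in the day 12 arrays, against 9.12, 9.01 and 9.8 in the day 1 arrays, a difference of -4.09 ± 0.35. Its relative ctsa-1.1 was not called (0.021 ± 0.14). The genes ctsa-3.1, ctsa-4.1 and ctsa-4.2 differed by -4.21 ± 0.23 to the floor, -3.98 ± 0.4 to the floor and -3.84 ± 0.27. Of 17 aspartyl protease genes 7 fell and 1 rose: asp-13 was at 6.12 and 5.61 in day 12 adults, against 9.34, 9.31 and 9.45 in day 1 adults, while asp-17 measured 7.77 and 7.65 at day 12, against 3.86, 4.24 and 5.99 at day 1. The differences were -3.5 ± 0.18 for asp-13 and 3.02 ± 0.57 for asp-17.

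The V-ATPase pumps protons into lysosomes and across the apical membranes of intestine and epidermis, and 12 of its 21 measured genes fell, with a median of -0.66. The gene vha-6, whose product is the intestinal membrane subunit, stood at 6.05 and 5.55 in the day 12 arrays, against 8.98, 8.78 and 9.03 in the day 1 arrays, a difference of -3.13 ± 0.23 (adjusted p = 1.31e-05). The epidermal membrane subunit gene vha-5 differed by -1.93 ± 0.25, the B subunit gene vha-12 by -1.69 ± 0.17 and vha-3 by -1.33 ± 0.21. The proton channel subunit gene vha-2 was not called (-0.31 ± 0.15), and without day 12 replicate 1 the falls numbered 7. Of 16 genes of the brush border and terminal web 8 fell and 2 rose. The intestinal filament gene ifb-2 was at 4.82 and 4.56 in day 12 adults, against 7.27, 7.67 and 8.29 in day 1 adults, and the microvillar actin gene act-5 measured 6.87 and 6.96 at day 12, against 9.72, 9.8 and 10.28 at day 1. The filament gene ifc-1 fell by 2.98 ± 0.33 and the peptide transporter gene pept-1 by 2.8 ± 0.29. The membrane linker gene erm-1 was not called (-0.36 ± 0.18). The junction gene dlg-1, active in all epithelia, stood at 8.5 and 8.65 in the day 12 arrays, against 6.02, 5.75 and 5.91 in the day 1 arrays, a difference of 2.68 ± 0.15 (adjusted p = 4.50e-06). The intestinal GATA factor gene elt-2 was not called (-0.75 ± 0.26, adjusted p = 0.0978), but was called lower after quantile normalization (adjusted p = 0.0225), with cyclic loess (0.0288) and without day 1 replicate 1 (0.0240). Of 12 aquaporin genes 6 fell and 1 rose, with aqp-11 and aqp-7 lower by differences of -1.8 ± 0.2 and -1.61 ± 0.25; the falls numbered 2 without day 12 replicate 1 and 3 without day 12 replicate 2.

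Amino acid breakdown had the highest share of falls of the 88 gene lists: 17 of 22 genes for tyrosine, tryptophan and branched-chain amino acids fell, the other 5 were not called, and all 22 differences were negative, with a median of -1.18. The lists were chosen with earlier results of these data known, so this rank only describes them. The enzymes of amino acid breakdown feed carbon of amino acids into the citrate cycle, and acdh-1, ech-6, hach-1, hphd-1 and alh-8 also form the propionate shunt, a bypass used when vitamin B12 is scarce. The acyl-CoA dehydrogenase gene acdh-1 was at 6.12 and 5.19 in day 12 adults, against 10.08, 9.56 and 10.04 in day 1 adults, a difference of -4.24 ± 0.28 (adjusted p = 8.06e-06). The 3-hydroxyanthranilate dioxygenase gene haao-1 of tryptophan breakdown measured 3.25 and 3.17 at day 12, against 6.26, 6.54 and 6.16 at day 1, a difference of -3.11 ± 0.25 (adjusted p = 1.98e-05). In both genes the gap between the days was wider than the spread within either day. The kynureninase gene kynu-1 stood at 5.3 and 4.89 in the day 12 arrays, against 7.88, 7.58 and 7.03 in the day 1 arrays, a difference of -2.4 ± 0.24. The tyrosine breakdown gene hpd-1 was at 7.42 and 7.63 in day 12 adults, against 9.59, 9.37 and 9.21 in day 1 adults, a difference of -1.86 ± 0.2 (adjusted p = 0.000149). The branched-chain transaminase gene bcat-1 differed by -1.85 ± 0.14 and the enoyl-CoA hydratase gene ech-6 by -1.9 ± 0.18. Of the vitamin B12-dependent route, the propionyl-CoA carboxylase gene pcca-1 had a difference of -0.079 ± 0.14 and the methylmalonyl-CoA mutase gene mmcm-1 of -0.35 ± 0.15, neither called.

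Methionine metabolism supplies methyl groups for phosphatidylcholine, and 12 of 23 genes of the methionine cycle and phosphatidylcholine synthesis fell while 1 rose, with a median of -0.77. The methionine sulfoxide reductase gene msra-1 measured 6.38 and 6.21 at day 12, against 9.94, 9.85 and 10.72 at day 1, a difference of -3.88 ± 0.41 (adjusted p = 0.000115). The phosphoethanolamine methyltransferase gene pmt-2 stood at 5.9 and 5.74 in the day 12 arrays, against 9.02, 8.53 and 8.91 in the day 1 arrays, a difference of -3.0 ± 0.24 (adjusted p = 2.18e-05). For pmt-2 the day 12 arrays lay far below the day 1 arrays. The S-adenosylmethionine synthetase gene sams-1 was at 5.7 and 5.81 in day 12 adults, against 8.24, 8.07 and 8.25 in day 1 adults, a difference of -2.43 ± 0.2. The choline/ethanolamine phosphotransferase gene cept-1 differed by -2.79 ± 0.22 and the cystathionine gamma-lyase gene cth-2 by -1.77 ± 0.2. The related synthetase gene sams-4 was not called (-0.27 ± 0.14).

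**Figure D3:**
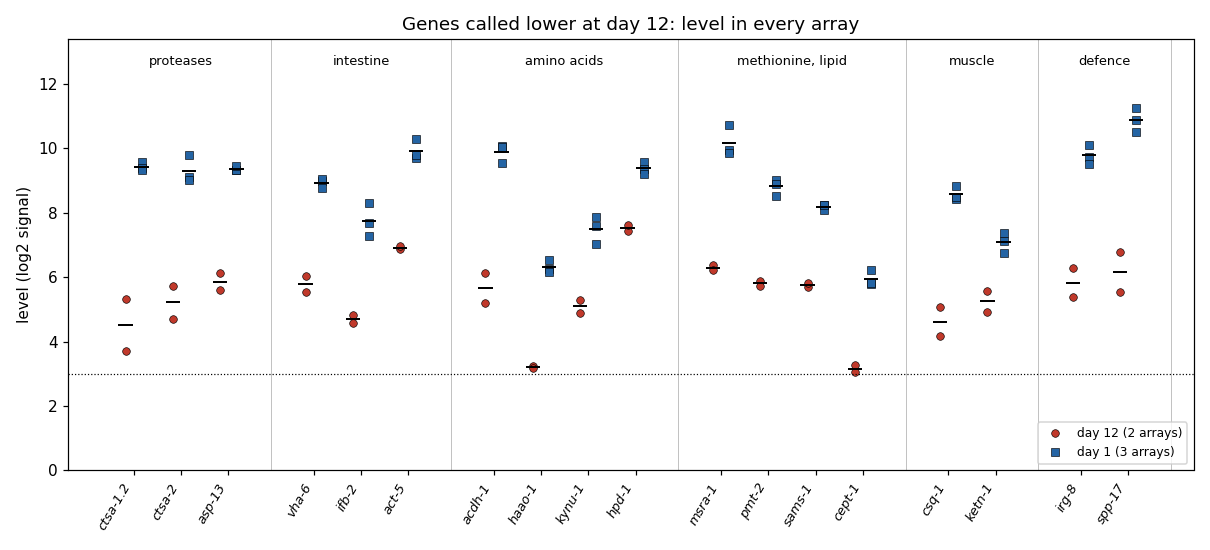
Level (log2 signal) in each array for genes called lower at day 12, with day 12 arrays as red circles, day 1 arrays as blue squares, bars at the means and a dotted line at the level of 3. In every gene shown each day 12 array lies below each day 1 array, as in every gene called lower. The genes haao-1 and cept-1 end near the dotted line.

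In central carbon and lipid metabolism calls were mostly falls, and in most of these lists the greater part of the members was not called. Of 23 glycolysis and gluconeogenesis genes 14 fell with a median of -0.68, or 8 without day 12 replicate 2. The lactate dehydrogenase gene ldh-1 fell by 0.97 ± 0.17, the pyruvate kinase gene pyk-2 by 1.29 ± 0.17 and the phosphoglycerate mutase gene ipgm-1 by 0.92 ± 0.17, while gpd-1 (-0.26 ± 0.15) was not called. Of 28 citrate and glyoxylate cycle genes 13 fell with a median of -0.47, and 7 fell with either day 12 array left out. The isocitrate dehydrogenase gene idh-1 measured 9.53 and 9.46 at day 12, against 10.52, 10.21 and 10.55 at day 1, a difference of -0.93 ± 0.17. Of 58 respiratory chain and ATP synthase genes 12 fell with a median of -0.36, and 5 without day 12 replicate 1 or 6 without day 1 replicate 2. The ATP synthase genes asg-2 and asb-2 fell by 1.26 ± 0.21 and 0.97 ± 0.16. In fatty acid synthesis and desaturation 10 of 23 fell and 1 rose, with 6 falls when either day 12 array or day 1 replicate 3 was left out. The acyl-CoA synthetase gene acs-1 stood at 7.57 and 7.05 in the day 12 arrays, against 9.42, 9.28 and 9.43 in the day 1 arrays, a difference of -2.07 ± 0.19, whereas the desaturase gene fat-1 was not called (0.050 ± 0.15). In beta-oxidation 17 of 43 fell and 3 rose, with 11 falls without day 12 replicate 2. The enoyl-CoA hydratase gene ech-7 was at 4.95 and 5.38 in day 12 adults, against 8.15, 8.23 and 9.18 in day 1 adults, a difference of -3.35 ± 0.3, while the carnitine palmitoyltransferase gene cpt-3 differed by 2.74 ± 0.2 from the floor. Of 22 sphingolipid genes 6 fell and 1 rose, and all 3 serine palmitoyltransferase genes, sptl-1, sptl-2 and sptl-3, were among the falls (-0.95 ± 0.17, -1.7 ± 0.21 to the floor and -0.88 ± 0.16). In the lipid-binding families far-7, far-4 and far-6 rose and lbp-6 fell by 1.74 ± 0.24.

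Detoxification genes of the transferase families fell more often than they rose, and cytochrome P450 genes moved both ways. As background, 9.45% of all genes rose and 4.57% fell, and 18.5% and 10.6% of genes above the floor. Among glutathione S-transferase genes 2.04% rose and 26.5% fell, and among UDP-glucuronosyltransferase genes 4.48% rose and 17.9% fell. Of 49 glutathione S-transferase genes 13 fell and 1 rose, and without day 12 replicate 1 the falls numbered 7. The gene gst-4, a common reporter of the factor SKN-1, measured 4.61 and 4.71 at day 12, against 6.84, 7.26 and 6.63 at day 1, a difference of -2.25 ± 0.19. The gene gst-24 alone rose, with 5.68 and 6.28 in the day 12 arrays, against 2.86, 3.02 and 3.06 in the day 1 arrays, a difference of 3.0 ± 0.35 from the floor. Of 67 UDP-glucuronosyltransferase genes 12 fell and 3 rose. No rise was called with quantile normalization or when day 1 replicate 1 or day 12 replicate 2 was left out, 1 was when day 12 replicate 1 was left out, and 5 were when day 1 replicate 3 was left out. The gene ugt-22 stood at 4.34 and 4.01 in the day 12 arrays, against 7.7, 7.39 and 7.46 in the day 1 arrays, a difference of -3.34 ± 0.17 (adjusted p = 2.82e-06). Of 74 cytochrome P450 genes 9 rose and 6 fell, shares of 12.2% and 8.11%, which lie between the 2 backgrounds. Among them cyp-33C8 was at 6.82 and 7.1 in day 12 adults, against 4.32, 4.61 and 5.63 in day 1 adults, while cyp-35C1 measured 3.62 and 3.6 at day 12, against 5.66, 5.77 and 5.84 at day 1. The differences were 2.11 ± 0.32 and -2.15 ± 0.15, and cyp-13A5 differed by 3.34 ± 0.31 from the floor. Among 26 antioxidant genes 3 rose and 4 fell, or 2 fell when day 12 replicate 1 was left out. The falls included msra-1, described above, and the glutathione peroxidase gene gpx-7 (-2.14 ± 0.27 to the floor). The extracellular superoxide dismutase gene sod-4 stood at 6.8 and 7.12 in the day 12 arrays, against 4.49, 4.43 and 4.87 in the day 1 arrays, the thioredoxin gene trx-3 differed by 2.91 ± 0.33 from the floor and the thioredoxin reductase gene trxr-1 by 1.02 ± 0.19. The peroxiredoxin gene prdx-2 was not called (-0.15 ± 0.15). The antioxidant shares were 11.5% higher and 15.4% lower, with 21 of the 26 genes above the floor.

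Several regulators of innate immunity rose, and the effector families had members that rose and members that fell. Of 28 genes of the p38 pathway, TGF-beta signalling and related immune control 12 rose and 1 fell, with a median of 0.46, and without day 12 replicate 1 the rises numbered 5. The C/EBP bZIP gene cebp-1 was at 7.44 and 7.54 in day 12 adults, against 4.02, 3.04 and 4.0 in day 1 adults, a difference of 3.8 ± 0.28 (adjusted p = 1.31e-05). The Tribbles pseudokinase gene nipi-3, which in C. elegans restrains cebp-1, measured 8.98 and 9.0 at day 12, against 6.55, 6.75 and 7.02 at day 1, a difference of 2.22 ± 0.18 (adjusted p = 2.19e-05). The MAP kinase phosphatase gene vhp-1 stood at 8.87 and 8.84 in the day 12 arrays, against 6.04, 5.99 and 6.6 in the day 1 arrays, a difference of 2.65 ± 0.19. All 3 genes had day 12 arrays close together and above day 1. The bZIP gene zip-2, known to act when a pathogen's toxin blocks translation, was at 9.38 and 9.62 in day 12 adults, against 7.18, 7.37 and 7.46 in day 1 adults, a difference of 2.17 ± 0.16. The p38 target gene atf-7 was not called (0.011 ± 0.15).

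Among effectors, 15 of 64 antimicrobial peptide genes rose and 4 fell, with 9 rises when dim probes were left out. No fall was called when day 12 replicate 1 was left out, 1 was when day 12 replicate 2 was left out and 2 were when day 1 replicate 1 or 2 was left out. The epidermal peptide gene nlp-29 measured 8.17 and 8.74 at day 12, against 5.62, 4.76 and 5.91 at day 1, a difference of 3.02 ± 0.35, and cnc-2 stood at 7.43 and 8.09 in the day 12 arrays, against 5.48, 4.49 and 4.66 in the day 1 arrays, a difference of 2.88 ± 0.4. The gene nlp-28 of the same cluster was not called (-0.047 ± 0.23). The peptide shares were 23.4% higher and 6.25% lower, with 22 of the 64 genes above the floor. Of 240 C-type lectin genes 8 rose and 27 fell, and 52 of the 240 were above the floor. The shares were 3.33% and 11.2%, beside 9.45% and 4.57% of all genes and 18.5% and 10.6% of genes above the floor. The gene clec-266 was at 9.7 and 10.17 in day 12 adults, against 5.18, 4.59 and 3.97 in day 1 adults, clec-146 differed by 2.8 ± 0.23, and clec-47 measured 4.14 and 4.0 at day 12, against 6.64, 6.65 and 8.92 at day 1. Of 16 lysozyme genes 3 rose and 6 fell: ilys-2 stood at 8.34 and 8.13 in the day 12 arrays, against 2.81, 3.47 and 4.83 in the day 1 arrays, a difference of 4.53 ± 0.49, and lys-4 was at 5.88 and 6.6 in day 12 adults, against 8.7, 9.42 and 10.41 in day 1 adults, a difference of -3.27 ± 0.41. Of 27 saposin-like genes 4 rose and 6 fell, with spp-9 and spp-31 at differences of 3.18 ± 0.41 and 2.96 ± 0.36 and spp-4 at -4.4 ± 0.24. Shares of rises and falls were 18.8% and 37.5% among lysozyme genes, and 14.8% and 22.2% among saposin-like genes. Of 34 response genes named irg, dod, hrg, sysm or drd 3 rose and 11 fell, shares of 8.82% and 32.4%. The pathogen response gene irg-8 measured 6.27 and 5.38 at day 12, against 9.72, 9.53 and 10.09 at day 1, a difference of -3.96 ± 0.29 (adjusted p = 1.31e-05). The zona pellucida domain gene irg-7 fell by 3.0 ± 0.24, while irg-1, a target of zip-2, differed by 1.69 ± 0.28 from the floor. Of 24 SCP-like genes 1 rose and 3 fell, shares of 4.17% and 12.5% beside the 9.45% and 4.57% of all genes. The rise was that of scl-2, which stood at 9.43 and 9.72 in the day 12 arrays, against 5.14, 5.91 and 5.69 in the day 1 arrays, a difference of 4.0 ± 0.28. Of 35 pals genes, a family switched on by intracellular pathogens, 6 rose (17.1%), and pals-26 differed by 2.66 ± 0.2 from the floor. Only 5 of the 35 were above the floor, and 4 were called higher with dim probes left out.

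Many genes for the adapter and substrate-binding parts of ubiquitin ligases rose, and few genes of the proteasome were called. Skp1-related proteins join F-box proteins to cullins, and 15 of 20 skr genes rose, all 20 differences were positive and the median was 1.3. The gene skr-9 was at 9.26 and 9.94 in day 12 adults, against 6.09, 6.16 and 5.45 in day 1 adults, a difference of 3.7 ± 0.26 (adjusted p = 1.02e-05). The gene skr-12 measured 9.06 and 9.65 at day 12, against 5.6, 6.05 and 5.34 at day 1, a difference of 3.69 ± 0.27 (adjusted p = 1.30e-05). The gene skr-21 stood at 7.92 and 8.72 in the day 12 arrays, against 5.16, 5.4 and 5.09 in the day 1 arrays, a difference of 3.1 ± 0.27. In each the day 12 replicate 2 array was the higher, and the member median of replicate 1 minus replicate 2 was -0.49. Several skr genes are close relatives whose probes may not separate them. The broadly used skr-2 was not called (0.18 ± 0.16). Of 150 F-box B and C genes 46 rose and 2 fell, 26 of the 150 were above the floor, and 18 were called higher with dim probes left out. The gene fbxc-40 was at 5.72 and 6.37 in day 12 adults, against 2.44, 1.9 and 2.61 in day 1 adults, and fbxb-71 measured 5.9 and 5.66 at day 12, against 2.24, 2.57 and 2.36 at day 1. Of 186 F-box A genes 19 rose and 3 fell, a share of rises near the 9.45% of all genes, and the rises were 9 without day 12 replicate 2 and 11 with dim probes left out. The falls numbered 6 when day 1 replicate 1 was left out and 1 when day 1 replicate 2 was. The gene fbxa-107 stood at 7.59 and 7.94 in the day 12 arrays, against 5.27, 5.68 and 6.03 in the day 1 arrays, a difference of 2.11 ± 0.23, and fbxa-24 differed by 4.12 ± 0.35. Of 103 MATH and BTB domain genes, adapters of another cullin class, 12 rose and 2 fell, a share of rises near that of all genes, with btb-6 and bath-9 at 1.36 ± 0.18 and 1.69 ± 0.23. Among 15 cullin and ubiquitin enzyme genes cul-6 alone was called, and it was at 4.43 and 4.68 in day 12 adults, against 3.24, 3.42 and 3.22 in day 1 adults, a difference of 1.26 ± 0.19. Of 33 proteasome genes 1 fell, rpn-6.2 (-0.84 ± 0.15), with a list median of -0.21, and rpt-5 was not called (-0.10 ± 0.14).

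Of 32 autophagy genes 15 rose with a median of 0.56. The mitophagy receptor gene dct-1 measured 7.58 and 8.03 at day 12, against 5.64, 5.49 and 6.34 at day 1, a difference of 1.98 ± 0.25 (adjusted p = 0.000408). The aggregate adapter gene sepa-1 stood at 6.96 and 7.18 in the day 12 arrays, against 5.22, 5.42 and 4.67 in the day 1 arrays, a difference of 1.97 ± 0.22, and atg-2 differed by 1.34 ± 0.15. The lysosomal factor gene hlh-30 was called higher (0.8 ± 0.16, adjusted p = 0.00757), a call that was lost under 1 alternative, with an adjusted p of 0.0617 without day 12 replicate 1.

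Few genes of the general chaperones and of the unfolded protein responses were called, while 7 of 11 small heat shock genes were. Of 37 CCT chaperonin and DnaJ genes 1 rose, and of 16 HSP70, HSP90 and HSF-1 genes 1 rose and 1 fell. The constitutive HSP70 gene hsp-1 was at 12.03 and 11.89 in day 12 adults, against 12.1, 11.89 and 12.05 in day 1 adults, a difference of -0.058 ± 0.15, and hsf-1 of 0.19 ± 0.15, neither called. The inducible hsp-70 differed by 1.35 ± 0.18 from the floor. Of the 11 small heat shock genes 4 rose, or 2 when day 12 replicate 2 was left out, and 3 fell, with hsp-43 at 1.25 ± 0.17 and hsp-25 at -1.39 ± 0.16. Among 30 genes of the unfolded protein response of the endoplasmic reticulum 3 rose and 1 fell. The rises numbered 1 when day 12 replicate 2 was left out. The sensor gene atf-6 measured 7.02 and 7.02 at day 12, against 5.41, 5.48 and 5.8 at day 1, a difference of 1.46 ± 0.18, while atf-4 stood at 7.53 and 7.57 in the day 12 arrays, against 8.62, 8.5 and 8.97 in the day 1 arrays, a difference of -1.14 ± 0.18, and xbp-1 was not called (0.4 ± 0.16, adjusted p = 0.144, or 0.0422 with an intensity trend and robust hyperparameters). In the mitochondrial response 2 of 19 fell, and neither hsp-6 (-0.12 ± 0.15) nor atfs-1 (-0.36 ± 0.17) was called.

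Few genes of protein synthesis were called. Of 64 cytoplasmic ribosomal protein genes 2 fell and 62 were not called, with a median of -0.19. Of these differences 60 were negative, beside a median of 0.11 over genes above the floor. The falls of this list numbered 10 with an intensity trend and robust hyperparameters. They numbered 5 when day 1 replicate 1 was left out and 0 with the 5 arrays alone. Of 65 mitochondrial ribosomal protein genes 4 fell, of 41 translation factor genes 3 rose and 2 fell, of 22 nucleolar genes 2 rose and 2 fell, and of 50 splicing genes 3 rose. The falls of mitochondrial ribosomal protein genes numbered 0 when day 12 replicate 1 was left out, 2 when day 12 replicate 2, day 1 replicate 2 or day 1 replicate 3 was left out, 8 when day 1 replicate 1 was left out and 9 with quantile normalization or cyclic loess. Splicing genes had 1 rise when day 12 replicate 2 was left out. These shares lie below the 29.0% called among genes above the floor. Of those called, eif-3.I was at 8.78 and 8.75 in day 12 adults, against 7.49, 7.65 and 7.89 in day 1 adults, the nucleolar gene nol-56 fell by 0.78 ± 0.15 and the spliceosome gene snrp-40.1 differed by 0.78 ± 0.15. Among 51 genes of DNA repair and the damage response 5 rose. The list had 1 rise with quantile normalization, with the 5 arrays alone or when day 12 replicate 2 was left out, 2 with cyclic loess or when day 12 replicate 1 or day 1 replicate 2 was left out, and 3 with array weights or when day 1 replicate 3 was left out.

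Insulin-like peptides, secreted ligands of the receptor DAF-2, rose where they changed. Of 40 measured, 8 rose, 9 were above the floor, and 4 were called higher with dim probes left out. The share of rises was 20%, beside 9.45% of all genes and 18.5% of genes above the floor. The gene ins-7, an agonist made in intestine and neurons, measured 6.25 and 6.72 at day 12, against 3.48, 3.87 and 3.6 at day 1, a difference of 2.84 ± 0.19 (adjusted p = 8.06e-06). The gene ins-23 stood at 6.73 and 7.88 in the day 12 arrays, against 3.26, 3.59 and 3.83 in the day 1 arrays, a difference of 3.74 ± 0.38 (adjusted p = 9.41e-05). Day 12 arrays of both stood above all day 1 arrays. The gene ins-8 differed by 3.51 ± 0.23 from the floor, and daf-28 was not called (-0.13 ± 0.19). Downstream, 4 of 22 pathway genes rose, but none did when day 12 replicate 1 was left out, and 2 did when day 1 replicate 1 or day 1 replicate 2 was left out or with the 5 arrays alone. The receptor gene daf-2 had a difference of 0.6 ± 0.15 (adjusted p = 0.0249), a call that was lost under 6 alternatives, with an adjusted p of 0.0553 with quantile normalization, 0.0528 with cyclic loess, 0.0723 with the 5 arrays of the 2 days alone, 0.167 when day 12 replicate 1 was left out, 0.0621 when day 1 replicate 1 was left out and 0.0654 when day 1 replicate 2 was left out. The FOXO gene daf-16 was at 7.72 and 7.28 in day 12 adults, against 7.17, 7.34 and 7.72 in day 1 adults, a difference of 0.090 ± 0.2, and was not called. The share of rises in this pathway was 18.2%, near the 18.5% of genes above the floor, where 21 of its 22 genes lay. The oxidative stress factor gene skn-1 was called higher (0.73 ± 0.17, adjusted p = 0.0171), a call that was lost under 2 alternatives, with an adjusted p of 0.15 when day 12 replicate 1 was left out and 0.0541 when day 1 replicate 2 was left out. The pharyngeal and gut factor gene pha-4 was called higher (0.96 ± 0.2, adjusted p = 0.00853), a call that was lost under 1 alternative, with an adjusted p of 0.089 without day 12 replicate 1.

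Of 31 FMRFamide-like peptide genes 7 rose (22.6%), and fewer did without day 12 replicate 2, beside 9.45% of all genes and 18.5% of those above the floor. Of 68 other neuropeptide-like genes 8 rose and 3 fell, shares of 11.8% and 4.41%, near the 9.45% and 4.57% of all genes. In the list of other genes no fall was called when day 12 replicate 1 was left out. The gene flp-15 measured 8.09 and 9.22 at day 12, against 6.02, 6.02 and 6.82 at day 1, a difference of 2.37 ± 0.33 (adjusted p = 0.000714). The gene flp-10 stood at 6.35 and 6.43 in the day 12 arrays, against 4.59, 5.2 and 5.32 in the day 1 arrays, a difference of 1.35 ± 0.21. The gene nlp-16 differed by 1.93 ± 0.26 and nlp-68 by 1.98 ± 0.2, while flp-22 (-0.10 ± 0.33) and pdf-1 (-0.027 ± 0.18) were not called. The proprotein convertase gene aex-5 fell by 1.57 ± 0.24 and the neprilysin gene nep-1 rose by 0.9 ± 0.16. Of 32 genes of synaptic release and transmitter synthesis 4 rose and 2 fell; the syntaxin gene unc-64 was at 6.01 and 6.21 in day 12 adults, against 4.71, 4.7 and 5.35 in day 1 adults, and the decarboxylase gene bas-1 of serotonin and dopamine synthesis measured 4.1 and 3.84 at day 12, against 5.3, 5.6 and 5.29 at day 1. Their differences were 1.19 ± 0.21 and -1.42 ± 0.17. The synaptic shares were 12.5% higher and 6.25% lower, between those of all genes and those above the floor (18.5% and 10.6%). The rises of this list numbered 1 when day 12 replicate 1 was left out and 2 when day 12 replicate 2 was. Of 171 transmitter receptor and channel genes 10 rose and 7 fell, of which 21 were above the floor, with 4 rises and 3 falls without day 12 replicate 2. There were 4 falls when day 12 replicate 1 was left out and 6 rises when day 1 replicate 2 was left out. The receptor and channel shares, 5.85% higher and 4.09% lower, lay below the 9.45% and 4.57% of all genes. Chemoreceptor genes are mostly too dim to read: of 1315, 5 had a mean above the floor, 10 rose and 5 fell. Those falls numbered 2 when either day 12 array was left out and 8 when day 1 replicate 1 or day 1 replicate 3 was left out. The chemoreceptor gene srv-1 stood at 3.67 and 3.56 in the day 12 arrays, against 5.47, 5.77 and 5.62 in the day 1 arrays, a difference of -2.0 ± 0.15. Of 39 cilium genes 9 rose, or 3 without day 12 replicate 2 and 2 with dim probes left out. Among tubulin and touch neuron genes tbb-6 differed by 3.54 ± 0.38 from the floor and tba-4 by -2.65 ± 0.28, and tba-1 was not called (0.19 ± 0.14).

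**Figure D4:**
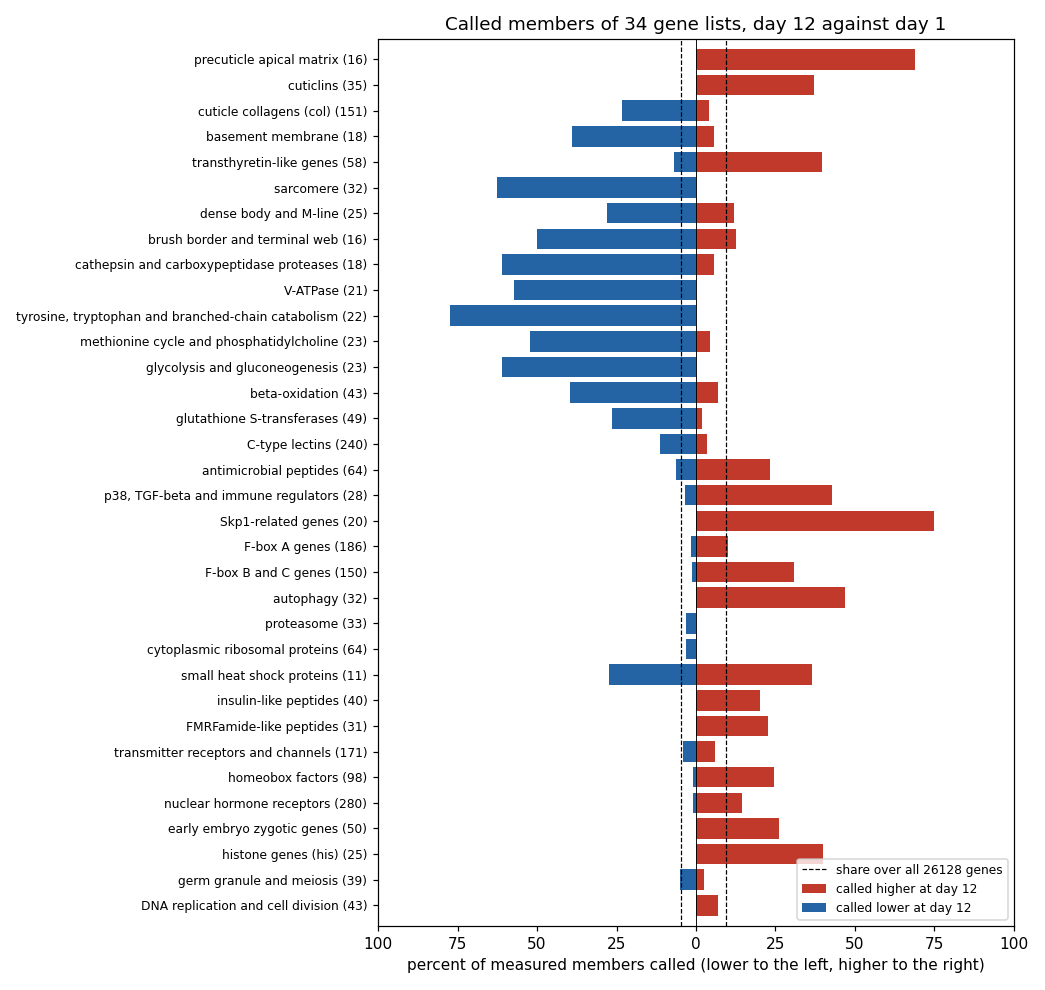
Percent of the measured members of 34 gene lists called higher (red, to the right) or lower (blue, to the left) at day 12, with the number measured in brackets and dashed lines at the shares over all genes, 9.45% higher and 4.57% lower. Skp1-related and precuticle genes extend furthest to the right and amino acid breakdown furthest to the left, while proteasome and cytoplasmic ribosomal protein genes lie inside the dashed lines. The lists were chosen with earlier results of these data known, so their order is a description.

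Day 6 levels placed some of these differences in time. Day 6 against day 1 and day 12 against day 6 share the day 6 arrays, and both share arrays with the comparison of day 12 with day 1, so the values are given side by side only. In the day 6 against day 1 comparison 3.85% of genes were called, and 8.98% in the day 12 against day 6 comparison. The precuticle median was 0.29 for day 6 minus day 1 and 1.74 for day 12 minus day 6. For sarcomere genes the medians were -1.14 and -0.64, and for amino acid breakdown -0.38 and -0.74. For Skp1-related genes they were 0.59 and 0.66, for linker histones 0.075 and 1.03, and for immune regulators -0.020 and 0.47. Among single genes, ttr-51 averaged 7.25 at day 1, 8.76 at day 6 and 10.43 at day 12. The gene noah-1 averaged 5.38 at day 1, 6.05 at day 6 and 9.12 at day 12, and cebp-1 3.69, 4.58 and 7.49 on the same days.

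The 2 day 12 arrays differed from each other in how far some genes had moved. Among the 424 genes that rose at least 4-fold, 330 were higher in replicate 2 than in replicate 1, and among the 279 that fell at least 4-fold, 187 were lower in replicate 2. Over all called genes, 1533 of 2469 that rose were higher in replicate 2 and 672 of 1195 that fell were lower in it, and the median difference from the day 1 mean of the falls was -1.17 in both replicates. At 4-fold or more, the median differences from the day 1 mean in the rising group were 2.52 in replicate 1 and 2.89 in replicate 2, and in the falling group -2.71 in replicate 1 and -2.86 in replicate 2. The genes with the widest gap between the day 12 arrays and a day 12 mean of at least 5 were 3 yolk protein genes, collagens and a few others. The yolk gene vit-4 was at 8.54 and 5.51 in day 12 adults, against 11.56, 11.17 and 10.88 in day 1 adults, and vit-3 measured 8.6 and 5.6 at day 12, against 12.16, 11.87 and 11.07 at day 1. Their day 1 arrays were much closer together than their day 12 arrays, and the near-identical copies may not be separated. Of 7 yolk protein and receptor genes 4 fell, rme-2 among them, and 3 were not called. All 7 differences were negative, with a median of -0.64. The summed signal of this list was 13.54 and 13.22 at day 12, and 14.65, 14.31 and 14.25 at day 1. The collagen gene col-119 stood at 7.3 and 5.41 in the day 12 arrays, against 11.3, 10.39 and 10.15 in the day 1 arrays, and ifas-1 was at 4.71 and 6.89 in day 12 adults, against 2.25, 2.27 and 2.29 in day 1 adults. In the other direction H39E23.3 was higher in replicate 1, with 8.65 and 6.89 in the day 12 arrays, against 1.77, 2.87 and 1.82 in the day 1 arrays. The gene nspc-16 measured 4.59 and 6.33 at day 12, against 5.74, 5.39 and 6.45 at day 1, and was not called (-0.4 ± 0.44).

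**Figure D5:**
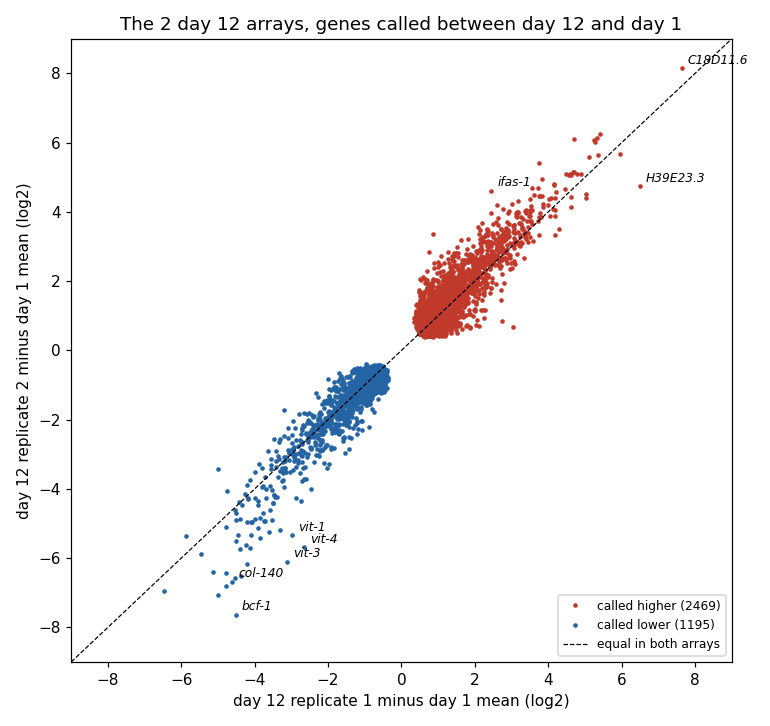
Each point is a gene called between day 12 and day 1, placed by its log2 difference from the day 1 mean in day 12 replicate 1 (across) and in day 12 replicate 2 (upwards), with the dashed line where both are equal. The 3 vit genes and several collagens lie below the line among the falls, and the axes share the day 1 mean.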

How the data were processed

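Per the labels' protocols, total RNA of synchronized N2 populations was isolated with Trizol and made into biotinylated cRNA for 8 arrays. The authors deposited 1 value for each of 29317 probes and 8 arrays, read here as log2 signal from its range. Neither the authors' normalization nor the log base is stated in the labels or files used here. Array signals hold no counts, precision depends on how many arrays there are, and 35.8% to 39.4% of genes per array lay above a level of 3.

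A probe table from the platform's annotation gave exactly 1 symbol for 26281 probes, several for 480 and none for 2556. The 3 day means were estimated from all 8 arrays together with limma 3.58.1 (lmFit, eBayes with defaults, two-sided) in R 4.3.3, the Benjamini-Hochberg adjustment ran over 26761 probes with a symbol, and a call was an adjusted p under 0.05. Each gene was its brightest probe, and probes with several symbols were not named. The fit was tested on simulated data. The members and the 88 gene lists were chosen with earlier results of these data known. Named genes were the 15 each that rose and fell most with both days at or above 3, the 10 brightest each from and to the floor, up to 6 called members, 3 of the opposite direction and 2 not called per list, 15 regulator and yolk genes, and the 8 with the widest gap between day 12 arrays among those averaging at least 5 there. The text describes a part of these, preferring genes whose call held under every alternative.

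Alternatives were quantile, cyclic loess and median scaling, an intensity trend, a filter on dim probes, all probes, the 5 arrays alone, array weights, the replicate number as a block, each array left out, and averaging all probes of a gene.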

Additional observations from a re-analysis of the deposited data

Results flagged for a closer look

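In a fit over all probes, 248 of the 2556 probes without a gene symbol, which the comparison does not use, were called between day 12 and day 1. Of these 92 were higher and 156 lower at day 12. No gene can be named for them here. Groups of 2 and 3 arrays are too small for a test of single outlying arrays.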

How the results depend on the processing

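The 3664 calls became 3500 with quantile normalization, 3631 with cyclic loess, 3708 with median centring, 3798 with an intensity trend, 3428 with dim probes left out, 3488 with all probes, 2904 with the 5 arrays alone, 3282 with array weights and 3667 with the mean of a gene's probes. With 1 array left out the calls numbered 2369 to 3424, the lowest without day 12 replicate 2, where 1 array stands for day 12 and is assumed to vary like the other days. Rises made up 67.4% of the calls as deposited, 56.5% after quantile normalization and 58.2% with cyclic loess. With the replicate number as a block 3150 genes were called. The numbers are only shared, since fewer than 3 pairs exist: deviations correlated at 0.252 between the arrays numbered 1 and at 0.123 between those numbered 2. With it the DNA repair list had 1 rise instead of 5, splicing genes 1 instead of 3 and patched-related genes 7 instead of 4, and the falls numbered 8 instead of 13 in the citrate cycle, 6 instead of 10 in fatty acid synthesis and 2 instead of 4 among transthyretin-like genes. The block ended no call of a named gene. Of 236 named genes, 228 kept their call or lack of it throughout, and none turned direction with a call. Of 2640 counts of list members called higher or lower, 2266 stayed within 1.5 times the reported count and 374 did not. Signal near the floor limits the dim families. The causes of these changes were not tested.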
